A study of Mus musculus with 10 samples.

Results

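The SREBP factors and the proteins that release them were followed through 7 genes in 10 mouse mammary tumors: Srebf1 and Srebf2, which encode the transcription factors SREBP-1 and SREBP-2, and Insig1, Insig2, Scap, Mbtps1 and Mbtps2, which encode the machinery that holds, carries and cuts them. All probe sets annotated to one of these genes alone were taken, 13 of the 34945 probe sets that carry a single gene symbol, and the 7 genes stand among 18193 genes so represented. The set was chosen by the Srebf1 signal, which had been seen to separate the treatment groups, so the differences between the groups for these 7 genes are given here as a description. No p-value is printed for them, and where they are counted past a threshold the count is descriptive too.

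The tumors came from female mice of the strain FVB/N-Tg(MMTVneu), called Tg-neu. Their transgene places the neu proto-oncogene under the MMTV promoter, which is active in mammary epithelium, so that mammary tumors arise spontaneously in every group compared here. Injections into the peritoneum began once a first tumor was felt and were given 3 times per week for 6 weeks, either with lovastatin (Lov) at 10 mg/kg or with the ethanol vehicle (Vhcl). Lovastatin is a statin, which blocks HMG-CoA reductase and thereby the mevalonate route to cholesterol. Total RNA of each whole tumor was hybridized to 1 Affymetrix mouse genome array, for 5 tumors per group. The IDs were A45, A49, A54, A59 and AB11 with Vhcl and A19, A48, A50, A55 and AB10 with Lov. The labels count 5 mice for each treatment but do not say that every tumor had a mouse of its own, so the spread between tumors is the error used throughout. One label field calls the control tumors not treated, whereas the treatment field assigns them to vehicle. Values are log2 signals, on which a difference of 1 is a doubling, and levels of different probe sets are not compared with each other because each probe set has its own affinity.

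Newly made SREBPs sit in the membrane of the endoplasmic reticulum (ER) bound to SCAP, the sterol sensor that escorts them. When sterols are plentiful, the anchor proteins INSIG-1 and INSIG-2 hold SCAP in the ER. When sterols fall, SCAP enters COPII vesicles and carries the SREBP to the Golgi, where the site-1 protease (S1P, gene Mbtps1) and then the site-2 protease (S2P, gene Mbtps2) cut it and free the part that enters the nucleus. SREBP-2 is known mainly for the genes of cholesterol synthesis and uptake and SREBP-1 for those of fatty acid synthesis, which in the mammary gland serve the making of milk fat. Because release is controlled by sterols and by cleavage, an mRNA level of these genes is not a measure of active SREBP.

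Srebf1 and Srebf2 have known inputs, some of which can be read in the bases just before their transcription starts. Windows from RefSeq (250 bases before a start, build GRCm38.p6) are shown for Srebf1, Srebf2 and Insig1 because they hold elements of known sterol control, the LXR response element, the sterol response element that SREBPs bind, and the E-box, a class of site that SREBPs can bind as well. Capitals mark the matches to the motif named for each. Srebf1 is shown at the most downstream of its 3 annotated starts (chr11:60210472-60210721, minus strand), with both matches to the LXR response element (GGGTTA, 4 bases of any kind, then CGG) in capitals. Srebf2 (chr15:82147019-82147268, plus strand) is shown with the sterol response element core ATCACCCC and Insig1 (chr5:28071162-28071411, plus strand) with the E-box CACGTG.
Srebf1: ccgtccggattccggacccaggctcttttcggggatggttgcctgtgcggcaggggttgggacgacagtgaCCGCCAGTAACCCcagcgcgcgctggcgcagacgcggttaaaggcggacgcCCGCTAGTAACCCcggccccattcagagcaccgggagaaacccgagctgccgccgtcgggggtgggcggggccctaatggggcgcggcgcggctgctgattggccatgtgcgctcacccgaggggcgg
Srebf2: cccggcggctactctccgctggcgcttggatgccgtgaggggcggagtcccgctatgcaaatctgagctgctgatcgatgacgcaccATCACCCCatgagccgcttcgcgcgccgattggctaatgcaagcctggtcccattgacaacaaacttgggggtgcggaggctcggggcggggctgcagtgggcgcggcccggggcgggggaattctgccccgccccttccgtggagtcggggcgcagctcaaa
Insig1: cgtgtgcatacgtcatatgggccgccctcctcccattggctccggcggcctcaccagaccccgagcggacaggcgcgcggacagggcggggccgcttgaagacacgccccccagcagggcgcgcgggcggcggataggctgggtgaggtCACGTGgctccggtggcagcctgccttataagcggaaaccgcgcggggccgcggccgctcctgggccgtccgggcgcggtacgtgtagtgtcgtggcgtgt

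Over 12 windows annotated to the 7 genes, 5 motifs were searched on both strands. The LXR element occurred in the Srebf1 window shown and in 0.113% of all 32851 windows searched. Its letters were written after the known element of this very promoter, so its presence there shows nothing further. Its 2 matches lay 179 to 167 and 128 to 116 bases before the start, on the strand opposite to transcription. The sterol response core was found in 1 of the 12 windows, that of Srebf2, 163 to 156 bases before the start, and in 0.654% of all windows. Only its exact letters were searched, so a variant of this element would be missed, in the Srebf1 windows as well. The E-box was found in 2 windows, in Insig1 at 101 to 96 bases and at 1 of the 2 Scap starts at 40 to 35 bases before the start (6.02% of all windows). CCAAT, bound by NF-Y, was present in 5 of the 12 windows (33.8% of all), and the GC box GGGCGG, bound by Sp1, in 8 (32.7% of all). These matches describe letters and not binding. The Srebf1 probe set carries the mark of transcripts of a single gene and lies at the 3′ end, as on all arrays of this type, so that the 3 starts of Srebf1 cannot be told apart in the values that follow.

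Srebf1 was higher in every Lov-treated tumor than in any Vhcl-treated tumor. Its only probe set (1426690_a_at) gave 12.16 in A45, 12.16 in A49, 12.34 in A54, 11.71 in A59 and 12.11 in AB11 with Vhcl. With Lov it gave 12.63 in A19, 12.99 in A48, 12.84 in A50, 12.97 in A55 and 12.83 in AB10. Thus A59 was the low tumor of the Vhcl group and A19 that of the Lov group, and the lowest Lov-treated tumor still lay 0.29 above the highest Vhcl-treated tumor, A54. The group means were 12.10 ± 0.23 (SD, n = 5) and 12.85 ± 0.14, a log2 difference of 0.76 (standard error 0.12), or 1.69-fold. The difference stayed between 0.66 and 0.82 under all 22 alternative settings, among them leaving out each tumor in turn. The lowest of these values came from leaving out Vhcl A59 and the highest from leaving out Vhcl A54. Some of the settings, such as another prior, cannot change this difference.

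**Figure D1:**
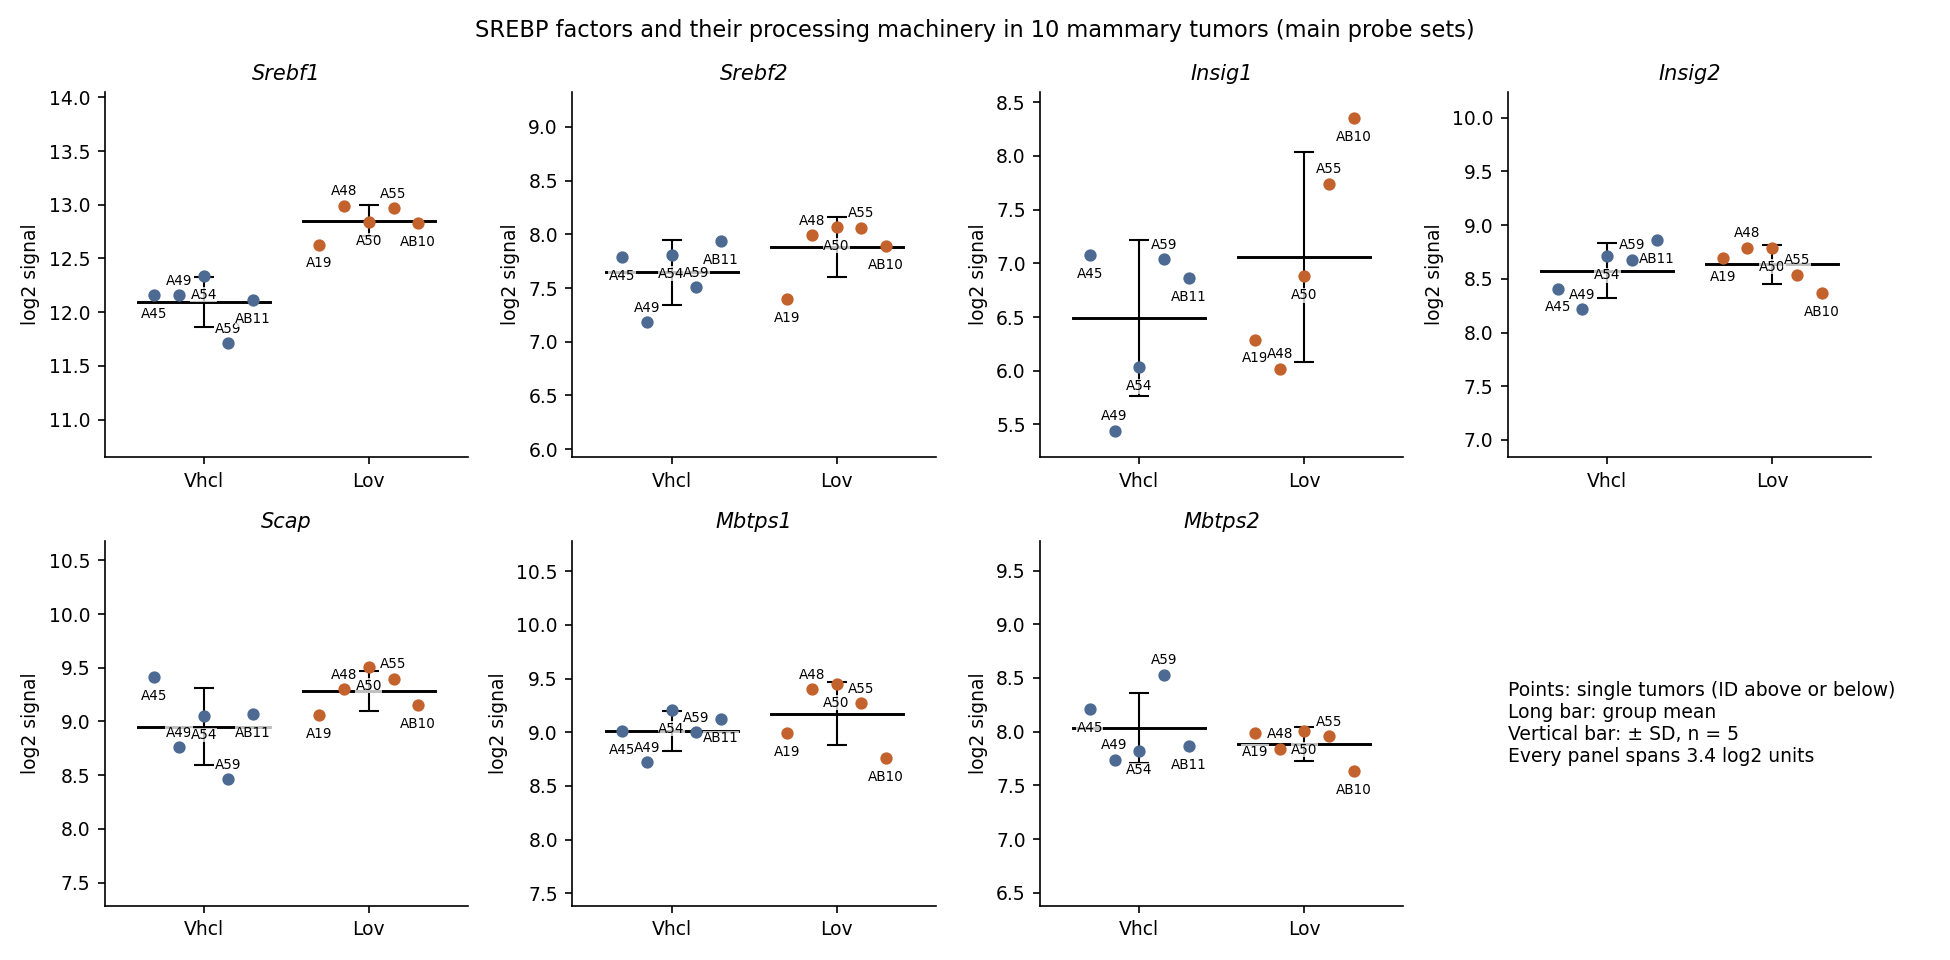
Log2 signal of the main probe set of each of the 7 genes in 5 Vhcl-treated (blue) and 5 Lov-treated (orange) tumors. Points are single tumors with their IDs, long bars are group means and vertical bars ± SD (n = 5), and every panel spans 3.4 log2 units. Srebf1 is the gene whose groups do not overlap (highest Vhcl 12.34, lowest Lov 12.63), and Insig1 has the widest spread (SD 0.72 with Vhcl and 0.98 with Lov).

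Srebf2 has 2 probe sets, and both had higher means with Lov while their groups overlapped. On the main probe set (1452174_at), the Vhcl-treated tumors gave 7.79 in A45, 7.18 in A49, 7.81 in A54, 7.51 in A59 and 7.94 in AB11. The Lov-treated tumors gave 7.40 in A19, 7.99 in A48, 8.07 in A50, 8.06 in A55 and 7.89 in AB10. Lov A19 thus fell among the low Vhcl-treated tumors, and 3 of the 5 Lov-treated tumors lay above all Vhcl-treated ones. The log2 difference was 0.24 (standard error 0.17), and it was 0.36 without Lov A19 and 0.12 without Vhcl A49. The other probe set (1426744_at) gave 6.77 to 7.43 with Vhcl (median 7.14) and 7.11 to 7.91 with Lov (median 7.53), a difference of 0.40 (standard error 0.17). A19 was again the lowest Lov-treated tumor and A49 the lowest Vhcl-treated tumor.

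Insig1, the anchor whose own gene is a known SREBP target, had the widest spread between tumors on the main probe sets. Its probe set (1454671_at) gave 7.08 in A45, 5.44 in A49, 6.03 in A54, 7.04 in A59 and 6.86 in AB11 with Vhcl. With Lov it gave 6.29 in A19, 6.02 in A48, 6.88 in A50, 7.74 in A55 and 8.35 in AB10. The highest values belonged to the Lov-treated AB10 and A55, whereas Lov A19 and A48 lay below Vhcl A45, A59 and AB11, so the groups overlapped widely. The log2 difference of 0.57 had a standard error of 0.46. It was 0.24 without Lov AB10 and 0.83 without Lov A48.

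Insig2, the second anchor, was read by 3 probe sets with small differences. The main one (1417981_at) gave 8.22 to 8.86 with Vhcl (median 8.68) and 8.37 to 8.79 with Lov (median 8.69), a log2 difference of 0.06 (standard error 0.14). Leaving out Vhcl A49 turned its sign, to -0.03. The others differed by 0.00 (1417982_at, standard error 0.12) and 0.20 (1417980_a_at, standard error 0.12). On none of the 3 were the groups apart.

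Scap, the escort, had a higher mean with Lov on both of its probe sets. The main one (1433520_at) gave 9.41 in A45, 8.76 in A49, 9.05 in A54, 8.46 in A59 and 9.07 in AB11 with Vhcl. With Lov it gave 9.06 in A19, 9.30 in A48, 9.51 in A50, 9.40 in A55 and 9.15 in AB10. All 5 Lov-treated tumors lay above the Vhcl median of 9.05, but Vhcl A45 was as high as the upper Lov-treated tumors. The log2 difference was 0.33 (standard error 0.16), and on the second probe set (1442885_at) it was 0.35 (standard error 0.19). That second probe set gave 4.53 to 5.28 with Vhcl and 4.64 to 5.67 with Lov. These are low signals, around the median signal of the arrays (4.97 to 5.05). The difference on the main probe set was 0.21 without Vhcl A59 and 0.45 without Vhcl A45. Degraded RNA loses its 5′ part first, and the excess of the 3′ over the 5′ beta-actin log2 signal was 0.80 to 1.35 in Vhcl-treated and 0.67 to 1.07 in Lov-treated tumors. With that measure as a covariate, the Scap difference was 0.17 and that of Srebf1 0.67. The part of RNA quality in these differences was not tested further.

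The proteases showed no common direction. For Mbtps1, which encodes S1P, the main probe set (1448240_at) gave 8.72 to 9.21 with Vhcl (median 9.01) and 8.76 to 9.45 with Lov (median 9.27), a log2 difference of 0.16 (standard error 0.15). Lov A48, A50 and A55 lay above all Vhcl-treated tumors and Lov AB10 near the lowest of them. The difference was 0.09 without Vhcl A49 and 0.27 without Lov AB10. Its other probe sets differed by -0.01 (1431386_s_at, standard error 0.09) and 0.45 (1431385_a_at, standard error 0.34). The former gave 4.80 to 5.24 with Vhcl and 4.94 to 5.03 with Lov, and the latter 3.78 to 5.30 with Vhcl and 4.42 to 5.86 with Lov. Both are low signals, around the median signal of the arrays. Mbtps2, which encodes S2P, was the single member with a lower mean in Lov-treated tumors. Its probe set (1436883_at) gave 7.74 to 8.53 with Vhcl (median 7.87) and 7.63 to 8.01 with Lov (median 7.96), a difference of -0.15 (standard error 0.15). That value rested largely on Vhcl A59 (8.53), without which it was -0.02.

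**Figure D2:**
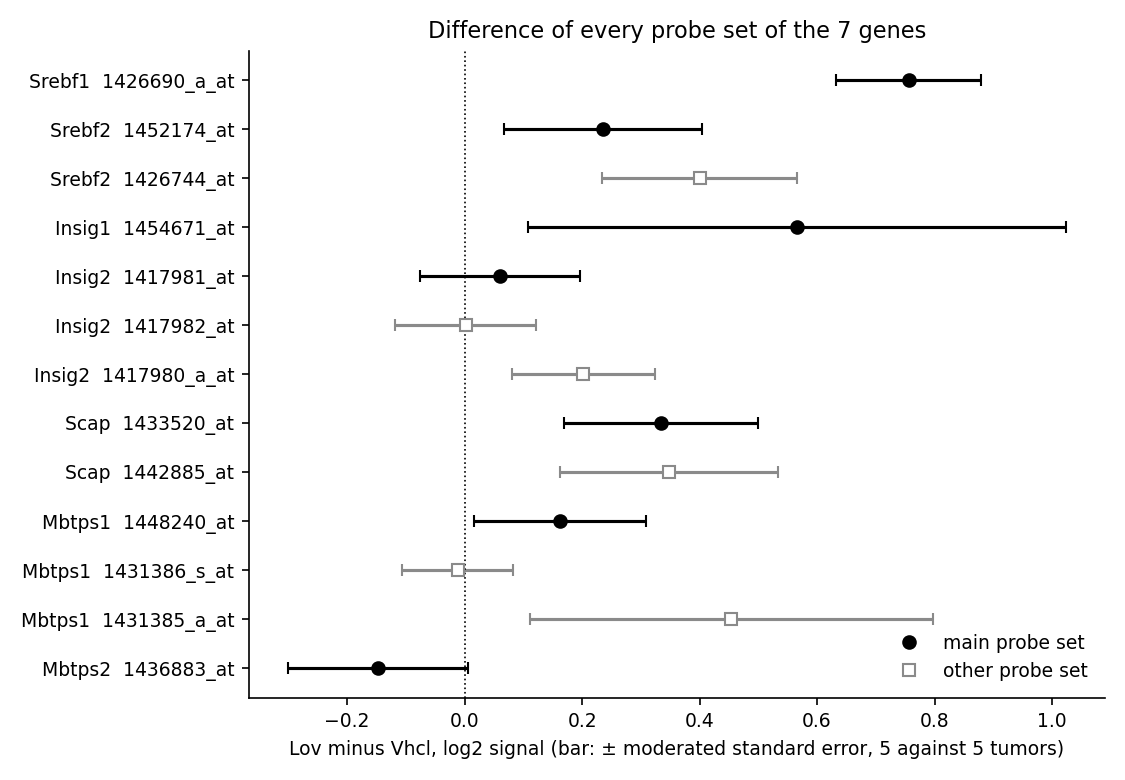
Log2 signal difference, Lov minus Vhcl, for all 13 probe sets of the 7 genes, with bars of ± 1 moderated standard error from limma (5 against 5 tumors). Filled circles are the main probe set of a gene (highest mean over the 10 tumors) and open squares its other probe sets; Srebf1 lies at 0.76, the Srebf2 pair at 0.24 and 0.40, the Scap pair at 0.33 and 0.35, and Mbtps2 at -0.15.

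Counted over main probe sets, 6 of the 7 genes had a higher and 1 a lower mean with Lov, with a median difference of 0.24 against 0.002 over all 18193 genes, of which 50.7% had a positive difference. On these main probe sets, only Srebf1 was past an unadjusted p of 0.05 in the limma comparison, where 6.24% of all genes were. Its groups were also the only ones of the 7 without overlap, which 0.693% of all genes showed in either direction and 0.346% with Lov higher. Since these values chose the set, nothing is read from either count. Over all 45037 probe sets tested, limma called 0 at an FDR of 0.05 or 0.25 (2379, or 5.28%, at an unadjusted p under 0.05), and the lowest adjusted p was 0.37.

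The tumors took similar places on several of the 7 genes. Vhcl A49 was the lowest Vhcl-treated tumor on 5 of them (Srebf2, Insig1, Insig2, Mbtps1 and Mbtps2), and Lov A50 was the highest or jointly highest Lov-treated tumor on 5 (Srebf2, Insig2, Scap, Mbtps1 and Mbtps2). Lov A19 was the lowest of its group for Srebf1, Srebf2 and Scap, and Lov AB10 for Insig2, Mbtps1 and Mbtps2 while being the highest for Insig1.

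How far the genes varied together within the groups does not depend on the difference between them. Deviations of each tumor from its group mean were therefore correlated over the 10 tumors for 35 relations: 21 pairs of members, 8 pairs of probe sets of one member and 6 relations of Srebf1, Srebf2 and Insig1 to the mean of the sterol or the fatty acid synthesis genes. Tumors were permuted within their groups, with every arrangement counted (exact, 2-sided), and 0 relations passed a Benjamini-Hochberg adjusted p of 0.05.

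The 2 probe sets of Srebf2 gave the lowest p of the Pearson r values. Their Pearson r was 0.85 (exact permutation p = 0.00431, adjusted 0.151) and their Spearman rho 0.83 (p = 0.00903, adjusted 0.0790). Without the 2 tumors farthest from the median, Vhcl A49 and Lov A19, r was 0.65. By Spearman rho the lowest p was that of Mbtps1 1431386_s_at and 1431385_a_at (rho = 0.78, exact permutation p = 0.00556, adjusted 0.0790), with r = 0.50. The remaining probe set pairs agreed less than that of Srebf2. Their r was 0.66, 0.62 and 0.02 for Insig2, 0.60 for Scap, and 0.09 and 0.53 for Mbtps1. Among different members, Insig2 and Mbtps1 had r = 0.76 (exact permutation p = 0.00972, adjusted 0.164) and rho = 0.81 (p = 0.00639, adjusted 0.0790). Without Vhcl A49 and Lov AB10, the 2 tumors farthest from the Insig2 median, that r was 0.39. It was 0.85 within the Vhcl and 0.80 within the Lov group, and 0.68 to 0.82 without any 1 tumor. How far the relation depends on Vhcl A49 and Lov AB10 was not tested further. Srebf2 and Mbtps1 had r = 0.67 (exact permutation p = 0.0426, adjusted 0.274) and rho = 0.72 (p = 0.0327, adjusted 0.191), and r was 0.50 without Vhcl A49 and Lov A19. For Srebf2 and Scap, r was 0.67 (exact permutation p = 0.0522, adjusted 0.274) and rho 0.83 (p = 0.00868, adjusted 0.0790), and r was 0.79 without the 2 farthest tumors. Srebf1 and Scap had r = 0.68 (exact permutation p = 0.0732, adjusted 0.32) and rho = 0.44 (p = 0.246, adjusted 0.573). That r was 0.04 without Vhcl A59 and Lov A19.

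The relation of Insig1 to the sterol synthesis genes had a similar size and did not pass the adjustment either. The list held 23 genes of cholesterol synthesis and uptake, of which 18 had a probe set of their own and the other 5 were not analysed here. With their mean, Insig1 had r = 0.64 (exact permutation p = 0.0141, adjusted 0.164) and rho = 0.67 (p = 0.0247, adjusted 0.173). The relation was r = 0.89 within the Vhcl and 0.72 within the Lov group, and r was 0.64 without Vhcl A49 and Lov AB10. For Srebf2 and the same mean, r was 0.19 (exact permutation p = 0.71, adjusted 0.873), with rho = 0.04 (p = 0.924, adjusted 0.951). The difference between these relations was not tested.

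**Figure D3:**
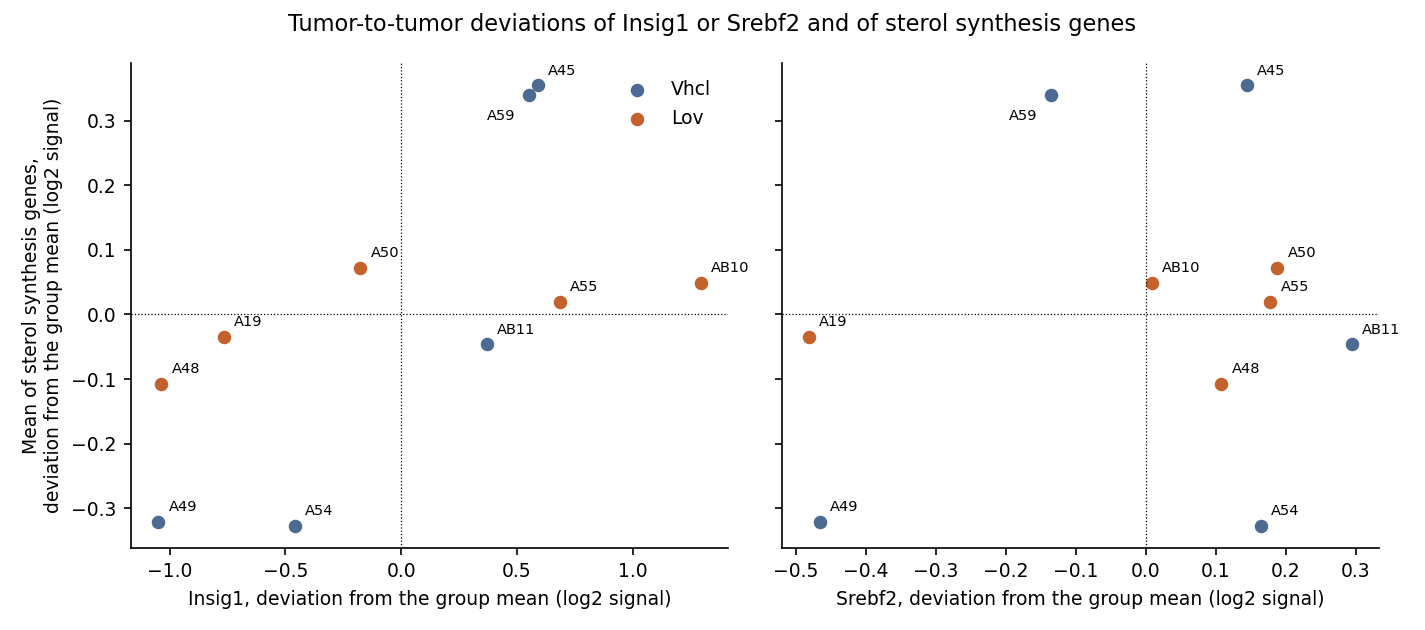
Deviation of each tumor from its group mean for Insig1 (left, x axis) or Srebf2 (right, x axis) against that of the mean of 18 sterol synthesis genes (y axis), all in log2 signal, for 5 Vhcl-treated (blue) and 5 Lov-treated (orange) tumors. On the left, tumors low for Insig1 (Vhcl A49 and A54, Lov A48 and A19) also lie below 0 on the y axis (r = 0.64 over the 10 tumors). On the right the points scatter (r = 0.19).

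For Srebf1 no relation to either list was past an adjusted p of 0.05. Its r was -0.57 with the sterol genes (exact permutation p = 0.170, adjusted 0.396; rho = -0.58, p = 0.0982, adjusted 0.315) and -0.48 with the fatty acid synthesis genes (exact permutation p = 0.338, adjusted 0.591; rho = -0.40, p = 0.33, adjusted 0.608). Without Vhcl A59 and Lov A19 these were -0.50 and -0.09.

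The sterol synthesis genes themselves did not differ in one direction between the groups. Of the 18 measured, 8 had a higher and 10 a lower mean with Lov, with a median difference of -0.01, and 0 reached an unadjusted p under 0.05 in either direction (3.5% of all genes did toward higher and 2.75% toward lower signals). Hsd17b7, which encodes a sterol ketoreductase, was at 0.26 (standard error 0.14; limma, adjusted p = 0.971), and Tm7sf2, a sterol reductase, at -0.48 (standard error 0.29; limma, adjusted p = 0.972). Mvk, the mevalonate kinase, differed by 0.12 and Msmo1, a sterol methyl oxidase, by -0.35. Without Vhcl A45, which had 8.61 for Tm7sf2 against 6.80 to 7.41 in the other controls, Tm7sf2 was at -0.17 and Msmo1 at -0.12. The mean level of the 18 genes was 7.29 to 7.97 in Vhcl-treated and 7.48 to 7.66 in Lov-treated tumors, so that the Lov-treated tumors lay inside the Vhcl range.

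Among 18 genes of fatty acid and triglyceride synthesis, which are known targets of SREBP-1, 11 had a higher and 7 a lower mean with Lov, with a median difference of 0.15. Of these, 2 were higher at an unadjusted p under 0.05 (against 3.5% of all genes) and 0 lower (against 2.75%), and 0 passed an FDR of 0.25. Acaca encodes acetyl-CoA carboxylase, which makes the building block of fatty acids. It gave 7.46 in A45, 7.70 in A49, 7.40 in A54, 7.36 in A59 and 7.72 in AB11 with Vhcl. With Lov it gave 7.75 in A19, 7.86 in A48, 8.03 in A50, 8.30 in A55 and 8.07 in AB10. All 5 Lov-treated tumors lay above all 5 Vhcl-treated ones, by as little as 0.03 between Lov A19 and Vhcl AB11. Of all genes, 0.346% had no overlap with Lov higher. The Acaca difference was 0.47 (standard error 0.12; limma, adjusted p = 0.919).

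Elovl6, the elongase that extends palmitate, gave 7.03 to 7.78 with Vhcl (median 7.43) and 7.49 to 8.07 with Lov (median 7.82). Its difference was 0.40 (standard error 0.15; limma, adjusted p = 0.928), and 4 of 5 Lov-treated tumors lay above all Vhcl-treated tumors. Fasn, the fatty acid synthase, and Scd1, the stearoyl-CoA desaturase, each had 1 control tumor far above the others. Vhcl A49 had 9.75 for Fasn where the other Vhcl-treated tumors had 8.38 to 8.58 and the Lov-treated tumors 8.92 to 9.64. For Scd1, Vhcl A49 had 13.23, the other Vhcl-treated tumors 12.17 to 12.46 and the Lov-treated tumors 12.61 to 13.19. The Fasn difference was 0.47 (standard error 0.26; limma, adjusted p = 0.971) and 0.72 without Vhcl A49. That of Scd1 was 0.36 (standard error 0.19; limma, adjusted p = 0.971) and 0.55 without Vhcl A49. Other settings made both smaller. With the beta-actin covariate, Fasn was at 0.33 and Scd1 at 0.22. Fasn was at 0.37 without Lov A55, and Scd1 at 0.27 without Lov A50. Without Vhcl A49, 4 genes of the list were higher at an unadjusted p under 0.05 (Acaca, Elovl6, Fasn and Scd1) and 1 was lower (Acacb). Of all 45037 probe sets, 2200 were under that threshold in this setting. The count of higher genes ran from 1 to 4 over 20 alternative settings. Nothing is read from the 4, since Vhcl A49 was singled out by its Fasn and Scd1 values. The same tumor was the lowest of its group for Srebf2 and Insig1, whereas its Srebf1 value of 12.16 was the group's median.

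**Figure D4:**
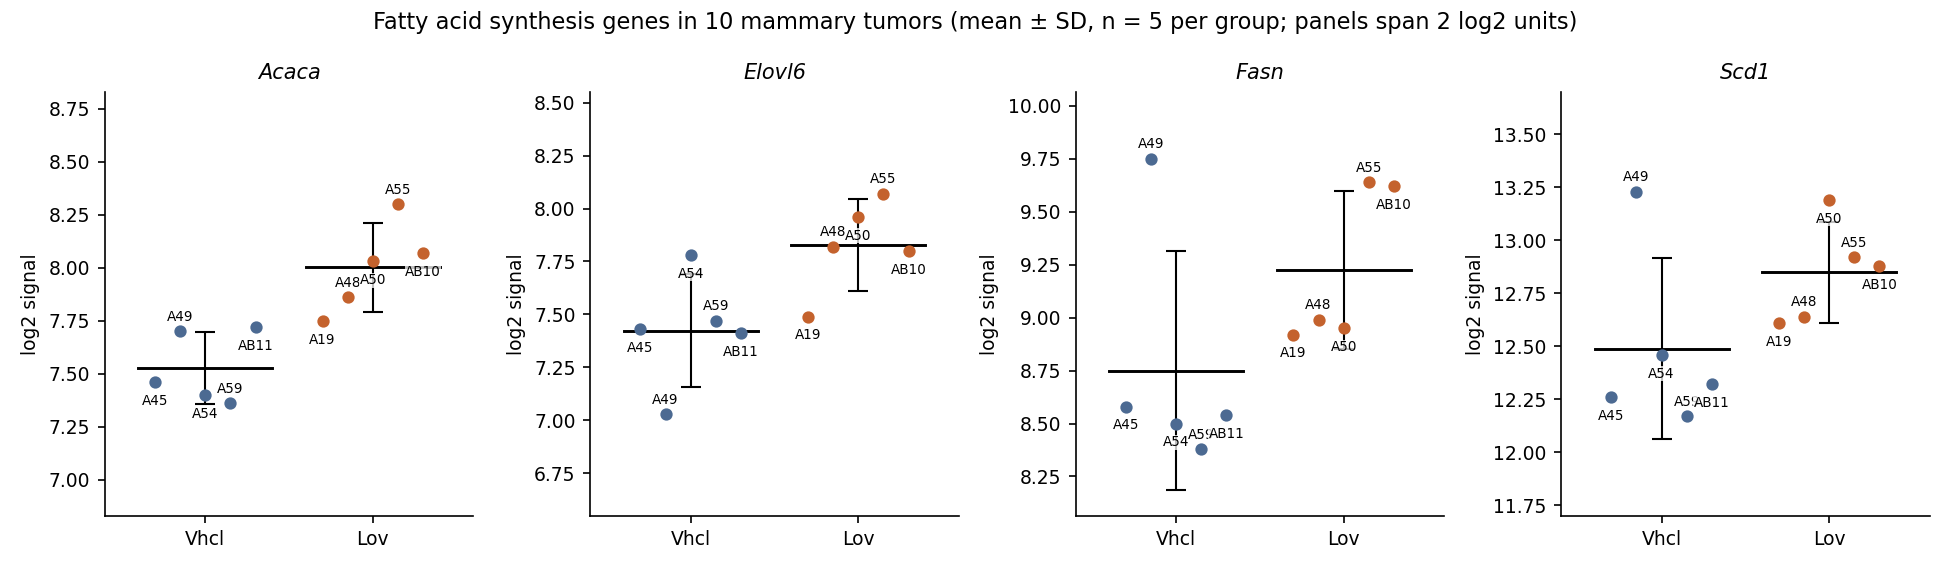
Log2 signal of 4 fatty acid synthesis genes in 5 Vhcl-treated (blue) and 5 Lov-treated (orange) tumors, with tumor IDs, group means (long bars) and ± SD (vertical bars, n = 5). Vhcl A49 stands at 9.75 for Fasn and 13.23 for Scd1, above every Lov-treated tumor, whereas for Acaca all Lov-treated tumors (7.75 to 8.30) lie above all Vhcl-treated ones (7.36 to 7.72).

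Genes that act on the escort and the anchors were considered next. In the list of ER degradation of INSIG and HMG-CoA reductase, 10 of 11 genes were measured and 1 was not analysed here. Of these, 5 had a higher and 5 a lower mean with Lov (median -0.01), with 2 higher and 0 lower at an unadjusted p under 0.05 (3.5% and 2.75% of all genes). The count of 2 was 1 in 10 of 20 alternative settings. Rnf145, a ubiquitin ligase of the ER that is known to modify SCAP, gave 9.82 in A45, 10.22 in A49, 9.95 in A54, 9.49 in A59 and 10.06 in AB11 with Vhcl. With Lov it gave 10.15 in A19, 10.49 in A48, 10.80 in A50, 10.53 in A55 and 10.28 in AB10. The 4 Lov-treated tumors other than A19 lay above all Vhcl-treated tumors, and the difference was 0.54 (standard error 0.16; limma, adjusted p = 0.919). Ube2g2, a ubiquitin-conjugating enzyme of ER degradation, was at 0.23 (standard error 0.10; limma, adjusted p = 0.932), and stayed under 0.05 in 9 of 19 alternative settings. Rnf139 and Nploc4, further genes of this route, were at -0.15 and -0.14.

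In the list of ER to Golgi transport of SCAP, 11 genes were measured, 5 with a higher and 6 with a lower mean with Lov (median -0.02), 1 higher and 0 lower at an unadjusted p under 0.05. The 1 was Paqr3, a Golgi protein known to bind the SCAP and SREBP complex, at 0.57 (standard error 0.20; limma, adjusted p = 0.928). It gave 2.78 to 3.60 with Vhcl and 3.33 to 4.26 with Lov, at the low end of the array's scale. Means of the COPII cargo adaptors Sec24a, Sec24b and Sec24d were lower with Lov, short of that threshold, whereas Sec24c of the same family was at 0.07. Sec24a was under an unadjusted p of 0.05 in 5 and Sec24b in 4 of 19 alternative settings. Sec24a was at -0.32 (standard error 0.15; limma, adjusted p = 0.953) and Sec24d at -0.25 (standard error 0.14; limma, adjusted p = 0.971). Sec24b was at -0.20 (standard error 0.10; limma, adjusted p = 0.956). All its Lov-treated tumors (7.24 to 7.62) lay below all its Vhcl-treated tumors (7.67 to 7.85), by as little as 0.05. Of all genes, 0.346% had no overlap with Lov lower.

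Cofactors and degradation factors of nuclear SREBP comprised 11 genes, 8 with a higher and 3 with a lower mean with Lov (median 0.07), 1 higher and 0 lower at an unadjusted p under 0.05. Nfyc, a subunit of the CCAAT-binding factor NF-Y that works beside SREBPs on many promoters, was at 0.45 (standard error 0.15; limma, adjusted p = 0.919). Another subunit, Nfyb, was at -0.29 (standard error 0.15; limma, adjusted p = 0.968). The coactivator Ep300 was at 0.14, and Fbxw7, which marks nuclear SREBPs for degradation, at -0.17.

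Of the 8 listed receptors and target genes of the LXR route that feeds into Srebf1, 7 were measured and 1 was not analysed here. Of these, 5 had a higher and 2 a lower mean with Lov (median 0.06), and 0 reached an unadjusted p under 0.05. Mylip, an LXR target that directs degradation of lipoprotein receptors, came closest at 0.40 (standard error 0.19; limma, adjusted p = 0.939), with 4 of 5 Lov-treated tumors above all Vhcl-treated tumors. Its difference was 0.25 without Vhcl A59 and 0.19 with the beta-actin covariate, and it was under 0.05 in 8 of 19 alternative settings. Nr1h3, which encodes LXR alpha, was at 0.13 (5.29 to 5.90 with Vhcl and 5.47 to 6.38 with Lov), Abca1, the cholesterol exporter, at 0.14, and Rxrb at -0.08.

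The proteases cut other substrates too, and 8 of these were measured, 4 with a higher and 4 with a lower mean with Lov (median 0.02) and 0 at an unadjusted p under 0.05 in either direction. Atf6, a sensor of unfolded proteins in the ER, was at 0.25 (standard error 0.14; limma, adjusted p = 0.971). Creb3l4, a membrane-bound transcription factor, was at -0.91 (standard error 0.45; limma, adjusted p = 0.958), and Vhcl A45 stood at 7.55 against 4.75 to 5.58 in the remaining controls. Creb3l2 was at -0.16 and Creb3 at 0.14. Over the 7 lists, 6 of 83 genes measured were higher and 0 lower at an unadjusted p under 0.05, where 3.5% of all genes were higher and 2.75% lower, and 0 passed an FDR of 0.25. The lists were drawn up with results of these arrays known.

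**Figure D5:**
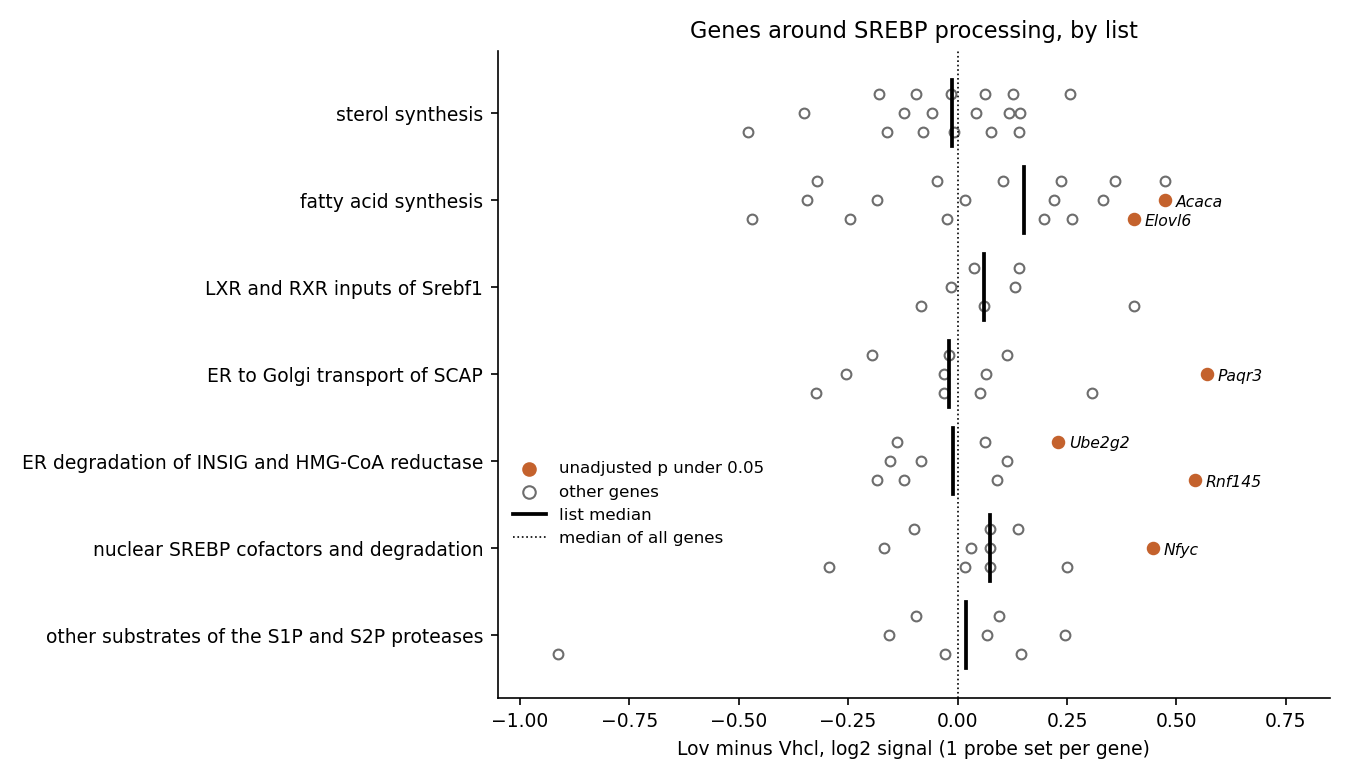
Log2 signal difference, Lov minus Vhcl, for each measured gene of 7 lists around SREBP processing (1 probe set per gene; vertical offsets only separate points). Filled points are the 6 genes at an unadjusted limma p under 0.05, open points the others, thick bars the list medians and the dotted line the median of all genes (0.002). The list medians lie between -0.02 and 0.15, and the named genes lie between 0.23 and 0.57.

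By pattern within the groups, the 5 genes most like Srebf1 over the 10 tumors (Pearson r of deviations from the group means of main probe sets, among 18192 other genes) were Trmt112, a partner subunit of methyltransferases (r = 0.97), the transcription factor Mef2a (0.95), 1700097N02Rik (0.95), the Golgi protein Tmem115 (0.95) and Grip1 (0.94). For Srebf2 they were the nucleoside transporter Slc29a1 (0.99), the extracellular superoxide dismutase Sod3 (0.96), Nacc2 (0.96), the heterochromatin protein Cbx5 (0.96) and the ETS factor Etv5 (0.95). For Insig1 they were the DNA repair gene Ercc1 (0.95), the mitochondrial ribosomal gene Mrpl16 (0.94), the Golgi GTPase Rab6a (0.92), Zim2 (0.92) and Tub (0.92). The 3 sets had no gene in common and held no gene of the lists above. With so many genes and 10 tumors, r values of this size are a description of likeness and no p is given.

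Each array read a whole tumor, so that fewer cells of a type and less RNA per cell cannot be told apart for any value above. Epithelial markers stood at a mean level of 10.59 to 10.92 with Vhcl and 10.60 to 10.88 with Lov, so the labelled tissue was present in all 10 tumors. Over 8 marker lists for cell types and neighboring tissues, 4 of 58 measured genes were higher and 3 lower with Lov at an unadjusted p under 0.05 (3.5% and 2.75% of all genes), and 0 passed an FDR of 0.25. Salivary gland markers, 2 of 6 lower (Dcpp1 at -3.18 and Prol1 at -2.55), had mean levels of 5.70 to 11.82 with Vhcl and 5.10 to 7.01 with Lov, being high in Vhcl AB11 and A59. Skeletal muscle markers, 0 of 8 past that threshold, ran from 4.18 to 8.66 and from 4.28 to 8.28. Adipocyte markers, 1 of 8 lower (Fabp4 at -0.86), ran from 5.27 to 5.80 and from 4.88 to 5.53. Means were lower with Lov for all 8 muscle markers (median -1.17). They were also lower for 7 of 8 adipocyte markers (median -0.08) and 5 of 6 salivary gland markers (median -2.46). Milk-producing alveolar cell markers ran from 10.30 to 12.54 and from 10.54 to 11.54. Of these, 1 of 8 was past the threshold (Lalba, higher at 0.94), whereas 5 of 8 had lower means with Lov, among them Wap at -1.48 and Csn2 at -0.67, and the list median was -0.39. Macrophage markers, with 1 of 8 past the threshold (Csf1r, higher at 0.43), ran from 8.01 to 8.50 and from 7.71 to 8.56. In that list 5 genes had higher and 3 lower means with Lov (median 0.04), Cd68 at -0.40 among the lower. T cell markers, with 1 of 6 past it (Cd3g, higher at 0.51), ran from 5.06 to 5.54 and from 5.18 to 5.43. Of these, 5 had higher means and 1, Cd8a at -0.07, a lower mean (median 0.10). Endothelial markers, with 0 of 6 past it, ran from 5.30 to 5.72 and from 5.28 to 5.94. The remaining higher gene was the epithelial Cd24a, at 0.45, in a list where 5 of 8 genes had lower means with Lov (median -0.08), Krt18 at -0.31 and Krt8 at -0.20 among them. The Srebf1 difference was 0.66 without Vhcl A59 and 0.76 without Vhcl AB11, and the part of tissue makeup in it was not tested otherwise.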

How the data were processed

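Each value is the signal of 1 probe set in 1 tumor. The authors had summarized and normalized the array intensities by RMA (affy), tools named in the submitters' processing notes without versions, and deposited log2 signals with 2 decimals. These were used without further scaling. The arrays have no sequencing depth, and their number limits the precision.

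Lov was compared with Vhcl using limma 3.58.1 in R 4.3.3 (lmFit and eBayes, default prior, 2-sided), with 64 control probe sets left out and Benjamini-Hochberg adjustment over the other 45037. Of these, 34945 carried 1 gene symbol, 932 several and 9160 none. RefSeq's gene table matched 34741 of the first. The probe set with the highest mean over the tumors stood for its gene. Standard errors are the moderated ones. Groups came from the sample labels. The 7 genes and all lists were chosen with earlier results of these data known. The limma p-values set a group difference against the spread between these tumors, which are not shown to come from separate mice. Permutation p-values place a correlation among rearrangements of the tumors within their groups.

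All members were described, with up to 4 genes of lowest p in each list and Fasn, Scd1, Nr1h3, Abca1, Fbxw7 and Atf6. Promoter windows (RefSeq, GRCm38.p6) and gene names came from tables, since no build is named for the arrays. The fit was tested on simulated data. Alternatives were a trended, robust prior, array weights, an ordinary t-test without moderation, 2 further scalings and 2 covariates (tumor ID prefix and beta-actin 3′ minus 5′). Further ones were other choices of tumors and probe sets, a filter on low signals, and linear means.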

Additional observations from a re-analysis of the deposited data

Results flagged for a closer look

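Of 82 groups of 5 tumors tested over the members and the named pathway genes, 9 held a tumor set apart from the other 4 by Dixon's criterion, of which chance gives about 5% (4.1 groups). The member among them was Srebf2, whose main probe set was at 7.40 in Lov A19 where the other Lov-treated tumors had 7.89 to 8.07. Vhcl A49 stood apart for Fasn (9.75 against 8.38 to 8.58), Scd1 (13.23 against 12.17 to 12.46) and Sec24b (7.85 against 7.67 to 7.70). Lov AB10 stood apart for Hsd17b7 (7.96 against 7.41 to 7.53) and Sec24b (7.24 against 7.56 to 7.62). The others were Paqr3 in Vhcl AB11 (3.60 against 2.78 to 3.0), Rnf139 in Lov A50 (8.81 against 8.65 to 8.67) and Creb3 in Vhcl A45 (8.33 against 8.75 to 8.84).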

How the results depend on the processing

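The log2 differences of the 7 members moved by less than 1 SD under each of 22 alternatives. All kept their sign except that of Insig2 without Vhcl A49. The 1 SD mark is a weak check. Leaving out 1 tumor of 5 cannot move a difference that far, and another prior, the t-test and the prefix covariate leave it unchanged. Insig1 stayed within the mark although its difference fell from 0.57 to 0.24 without Lov AB10. The 2379 probe sets at an unadjusted p under 0.05 became 1488 with the filter on low signals. At an FDR of 0.25 the count of 0 became 6 with a trended, robust prior, 17 with the ID prefix as covariate, 5 with that filter and 327 without Lov A19 and Vhcl AB11 together, where 4 passed an FDR of 0.05. Leaving out single tumors gave 0 to 38 (38 without Lov A19 and 31 without Vhcl AB11) and, at an FDR of 0.05, 0 to 1. The number of members at an unadjusted p under 0.05 was 2 with array weights, 2 without that pair of tumors and 1 to 3 without single tumors (3 without Lov A19, 2 without Vhcl A45). Of all 45037 probe sets, 2853 were under it with array weights, 3478 without the pair and 1675 to 3166 without single tumors. The main fit had 2379. Nothing is read from these member counts, since the Srebf1 difference chose the set. In the sterol synthesis list, 1 gene was higher with the prefix covariate and without the pair, and 1 was lower with the beta-actin covariate (0 to 1 in each direction without single tumors). In the fatty acid synthesis list, the mean of all probe sets gave 1 higher and 1 lower, and leaving out single tumors gave 2 to 4 higher and 0 to 1 lower. For the other 5 lists, 159 of 200 alternative counts stayed within 1.5 times the count reported. The cause of these moves was not tested beyond the change in tumors or probe sets itself. No paired analysis was possible because the labels number no tumors in common between the groups. With 5 arrays a group, small differences cannot be resolved.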
